A study of Caenorhabditis elegans with 2 samples.

Results

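The ONECUT homeobox genes of Caenorhabditis elegans and the homeobox gene ceh-5 were examined for binding of CEH-88 across the genome. The family had 6 members here, ceh-38, ceh-21, ceh-39, ceh-41, ceh-48 and ceh-49, so with ceh-5 the set held 7 of 19973 protein-coding genes on the 6 nuclear chromosomes. The genes were chosen by the peaks they carry, since ceh-38 and ceh-5 were picked for having a CEH-88 peak and the rest of the family for comparison. Their peaks are therefore described and not tested. The window of a gene was its body plus 5 kb on each side. Its regions were read from all 8 deposited peak lists with their score, signal and rank.

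The data came from chromatin immunoprecipitation and sequencing (ChIP-seq) of whole first-stage (L1) larvae, 6 h of age and synchronised by bleaching and starvation. Both libraries, biological replicates 1 and 2, were of strain OP593, genotype wgIs593 in an unc-119(tm4063) background. Its transgene holds unc-119(+) and a ceh-88 gene tagged with TY1, EGFP and 3xFLAG, and chromatin was pulled down through the GFP part of the tag. An untagged strain was not analysed here, so recovery that does not depend on CEH-88 cannot be told apart from its binding. The tagged gene comes from a transgene, and whole animals pool all cell types, so the tissue in which a gene was bound is unknown.

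ONECUT proteins bind DNA through a cut domain followed by a homeodomain, and the vertebrate member HNF6 acts in liver, pancreas and nervous system. In C. elegans, genes of the wider CUT class act together to maintain the genes that all neurons express. CEH-39 has a separate role as an X signal element, one of the X-linked factors whose dose sets sex by repressing xol-1. CEH-5 has a homeodomain but no cut domain and resembles vertebrate VAX proteins.

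The sequences that carry the results are the peak at the start of ceh-38 and a peak beside ceh-39 that lies over a tRNA gene. They come from the RefSeq copy of assembly WBcel235, which has the coordinates of ce11, and all are on the plus strand. The first is the part of the ceh-38 peak between the genes malt-1 and ceh-38, chrII:6951356-6951525, in lower case because none of the motifs searched falls in it.
ceh-38 upstream: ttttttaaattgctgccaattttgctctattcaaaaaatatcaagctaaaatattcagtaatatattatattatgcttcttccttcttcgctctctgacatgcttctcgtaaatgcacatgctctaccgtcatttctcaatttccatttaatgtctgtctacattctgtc
The next is the single ATCGAT, in capitals, near the ceh-38 summit, in the 5′ UTR at chrII:6951668-6951697.
ceh-38 site: gtggccatcagtATCGATcggtgtctagtc
The last surrounds the summit of the replicate 1 peak in the ceh-39 window, chrX:1858592-1858891, with the tRNA gene WBGene00023152 in capitals.
ceh-39 window: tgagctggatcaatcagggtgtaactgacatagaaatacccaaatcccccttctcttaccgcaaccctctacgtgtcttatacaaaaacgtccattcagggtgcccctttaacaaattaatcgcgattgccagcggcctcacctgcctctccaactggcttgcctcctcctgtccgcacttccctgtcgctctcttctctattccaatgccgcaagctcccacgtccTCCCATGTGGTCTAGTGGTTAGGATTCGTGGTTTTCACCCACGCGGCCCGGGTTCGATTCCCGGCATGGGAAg

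The lists differ in what they hold. The 4 thresholded lists keep regions past the authors' limit on the irreproducible discovery rate (IDR), which corresponds to a score of 830 on a scale up to 1000, or an IDR of 0.01. Replicate 1 had 1128 such peaks, replicate 2 had 698, the conservative whole-series list had 1171 and the larger whole-series list had 1349. The 4 ranked lists also hold weaker regions, from 85787 in replicate 1 to 122341. The signal is the caller's own strength value, without a stated scale between lists, and read depth is unknown. All 113382 regions present in both ranked lists of the whole series had the same signal, and 38092 had the same score, so at a given region these lists differ in score alone. The gene ceh-88 itself had no thresholded peak in any list, and its strongest ranked regions had signals of 25.5 in replicate 1 and 34.8 in replicate 2.

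Of the 7 genes, ceh-38 and ceh-5 had a peak in the conservative list and ceh-21, ceh-39, ceh-41, ceh-48 and ceh-49 had none. Among all protein-coding genes 2907, or 14.6%, had a conservative peak in the same kind of window. The share was 16.1% in the larger whole-series list and 9.25% in replicate 2, where again ceh-38 and ceh-5 were the genes with a peak. In replicate 1 it was 14%, and there ceh-39 had a peak as well. Because the rule selected on these peaks, the count of 2 of 7 is read no further.

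ceh-38 and ceh-5, picked for having a peak, were also the genes with one under every other way of assigning conservative peaks. Windows of 2 kb held a peak at 9.27% of all genes and windows of 10 kb at 22.1%. Peaks with the top score of 1000 lay in the 5 kb window of 12.1% of genes, and summits in place of whole regions in that of 14.2%. A summit from 1000 bp upstream to 200 bp downstream of a transcript start was present at 4.73% of genes. Assigning each summit only to the gene with the nearest start left 4.96%.

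**Figure D1:**
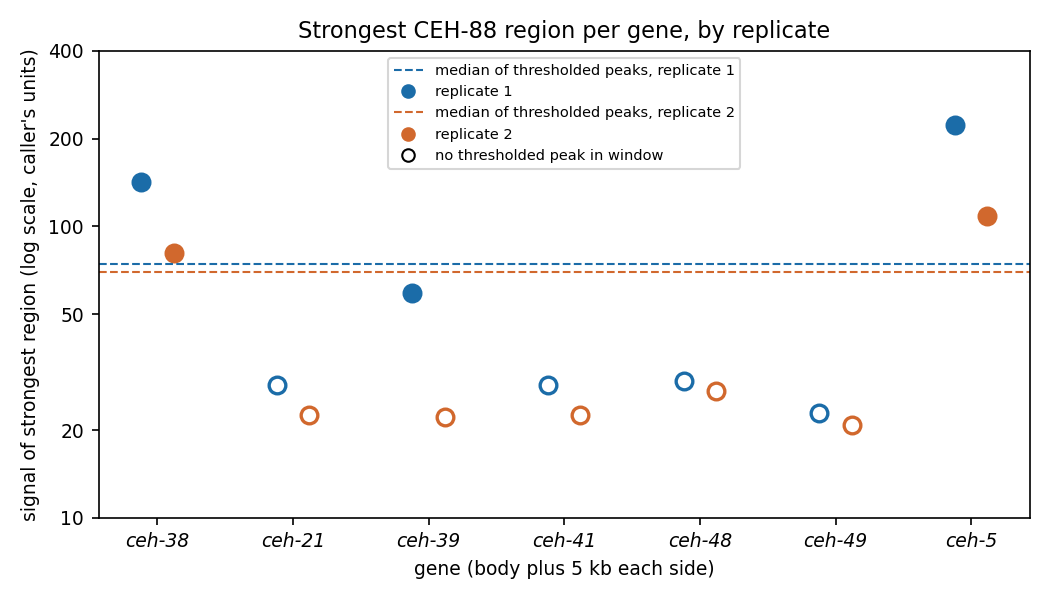
Signal (log scale, caller's units) of the strongest ranked region in the body plus 5 kb of each gene, in replicate 1 (blue) and replicate 2 (orange). Filled points mark windows with a thresholded peak in that replicate, and dashed lines mark the median signal of all thresholded peaks, 74.2 in replicate 1 and 69.7 in replicate 2. ceh-38 and ceh-5 lie above both lines in both replicates, and ceh-39 is filled in replicate 1 only. For ceh-5 the strongest region lies upstream of the neighbouring gene eat-16 and not at the start of ceh-5.

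ceh-38 is a broadly expressed ONECUT gene, and its window held a single peak, located at its start. The gene (WBGene00000459) lies on II from 6951526 to 6955409 on the plus strand, with 24 annotated transcripts and 11 distinct starts between 6951526 and 6952070. The conservative peak ran from 6951356 to 6951751 with its summit at 6951554, in the 5′ UTR and 28 bp downstream of the first start. Upstream it reached into the 225 bp that separate ceh-38 from malt-1, which is transcribed away from it and encodes a paracaspase homologue.

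The ceh-38 peak had signals of 142 (replicate 1) and 81.3 (replicate 2), and its score was 1000 in all 4 thresholded lists. It passed in each replicate alone. Replicate 1 was the higher, by 1.74 times, against a median of 1.28 times over the 1152 conservative peaks with a region in both replicates (SD of the log2 ratio 0.50). The summits of the replicates were 27 bp apart, at 6951581 and 6951554, both in the 5′ UTR.

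Among thresholded peaks, the ceh-38 peak ranked 185 of 1128 in replicate 1, with 16.3% of peaks stronger, and 282 of 698 in replicate 2, with 40.3% stronger. These lists differ in length, so the shares are not compared. In the full ranked lists 0.217% of the regions of replicate 1 and 0.292% of those of replicate 2 were stronger. In the conservative list its signal of 218 had rank 217 of 1171. Among all protein-coding genes, 3.00% had a stronger region in their window in replicate 1 and 4.29% in replicate 2.

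No other region of the ceh-38 window passed the threshold in any list. Each replicate listed 12 regions there, the peak included, with median signals of 11.99 (replicate 1) and 16.7 (replicate 2). The medians of the full ranked lists were 12.2 in replicate 1 and 11.1 in replicate 2. The next strongest region of the whole series, 6949218 to 6949613, had a signal of 41.2 and lay in an intron of malt-1. The strongest overlapping regions of the replicates had signals of 30.6 (replicate 1) and 30.4 (replicate 2), with scores of 253 and 15. In the ranked list that belongs to the conservative list the malt-1 region scored 21. The window also covers the end of tra-2, a sex determination gene that overlaps the 3′ end of ceh-38 on the opposite strand. In that list the third strongest region of the window, in an intron of tra-2, had a signal of 33.7 and a score of 66.

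In the window of ceh-5, 3 regions passed the threshold in the conservative list, 4 in the larger whole-series list, 3 in replicate 1 and 1 in replicate 2, and the strongest was not at its own start. ceh-38 had 1 in each list. The ceh-5 counts of the conservative list and of replicate 1 each include a pair of overlapping regions upstream of eat-16. The gene (WBGene00000430) is short, on I from 9727169 to 9728034 on the plus strand. All but its last bases lie inside ocrl-1, an inositol phosphatase gene on the opposite strand, and eat-16, which encodes a regulator of G protein signalling, ends 884 bp upstream of it. The window of ceh-5 thus takes in the whole of eat-16. Binding there cannot be assigned to a single gene by position.

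The conservative peak nearest to the start of ceh-5 ran from 9726427 to 9726822. Its summit at 9726625 was 544 bp upstream of ceh-5, between eat-16 and ceh-5 and in an intron of ocrl-1. The strongest overlapping regions had signals of 57.2 (replicate 1) and 40.4 (replicate 2). The scores there were 396 and 346, so the region did not pass in either replicate alone. In the conservative list it scored 1000 with a signal of 112 and rank 609 of 1171, with 51.9% of peaks stronger. The summits of these strongest regions, at 9726689 (replicate 1) and 9726541 (replicate 2), were 148 bp apart. Replicate 2 listed another overlapping region, with its summit at 9726743, a signal of 31.6 and a score of 255. Another one of replicate 1 had a signal of 22.9 and a score of 8. The distance between replicates thus depends on the region taken and is not compared with that at ceh-38.

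The strongest peak in the ceh-5 window had the start of eat-16 as its nearest protein-coding start. It ran from 9722078 to 9722473, with its summit 440 bp upstream of the eat-16 start and 4893 bp upstream of ceh-5. There it lay in an intron of ocrl-1 and in exons of 2 overlapping noncoding RNA genes, C16C2.7 and C16C2.8. Its signal was 222 in replicate 1 and 108 in replicate 2, with a score of 1000 in both. It ranked 64 of 1128 in replicate 1, 161 of 698 in replicate 2 and 98 of 1171 in the conservative list, where its signal was 329. With a window of 2 kb this peak falls outside.

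Other regions of the ceh-5 window passed in some lists and not in others. A region from 9725235 to 9725630, in the 3′ UTR of eat-16 and 1736 bp upstream of ceh-5, had signals of 98.9 (replicate 1) and 26.4 (replicate 2). It passed in replicate 1 (score 1000) and in the larger whole-series list, and not in replicate 2 (score 48) or in the conservative list, where its ranked score was 721. A region from 9732202 to 9732597, intergenic and 5231 bp downstream of the ceh-5 start, passed only in the larger whole-series list, with a signal of 61.0. It overlapped a ranked region of replicate 2 with a signal of 43.5 and no ranked region of replicate 1. The peak from 9722311 to 9722706 overlaps the strong peak before eat-16 and scored 1000 in the conservative list with a signal of only 7.77. In the larger ranked list the same region scored 21 and did not pass.

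The regions of this window lie on both sides of the threshold. The lowest score that passed among all regions of the 7 genes was 998, at 9722334 to 9722683 in replicate 1. The highest scores that did not pass were 789, for the tRNA region beside ceh-39 in the larger ranked list, 721 for the eat-16 3′ UTR region and 708 in replicate 2 for 9722969 to 9723328.

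**Figure D2:**
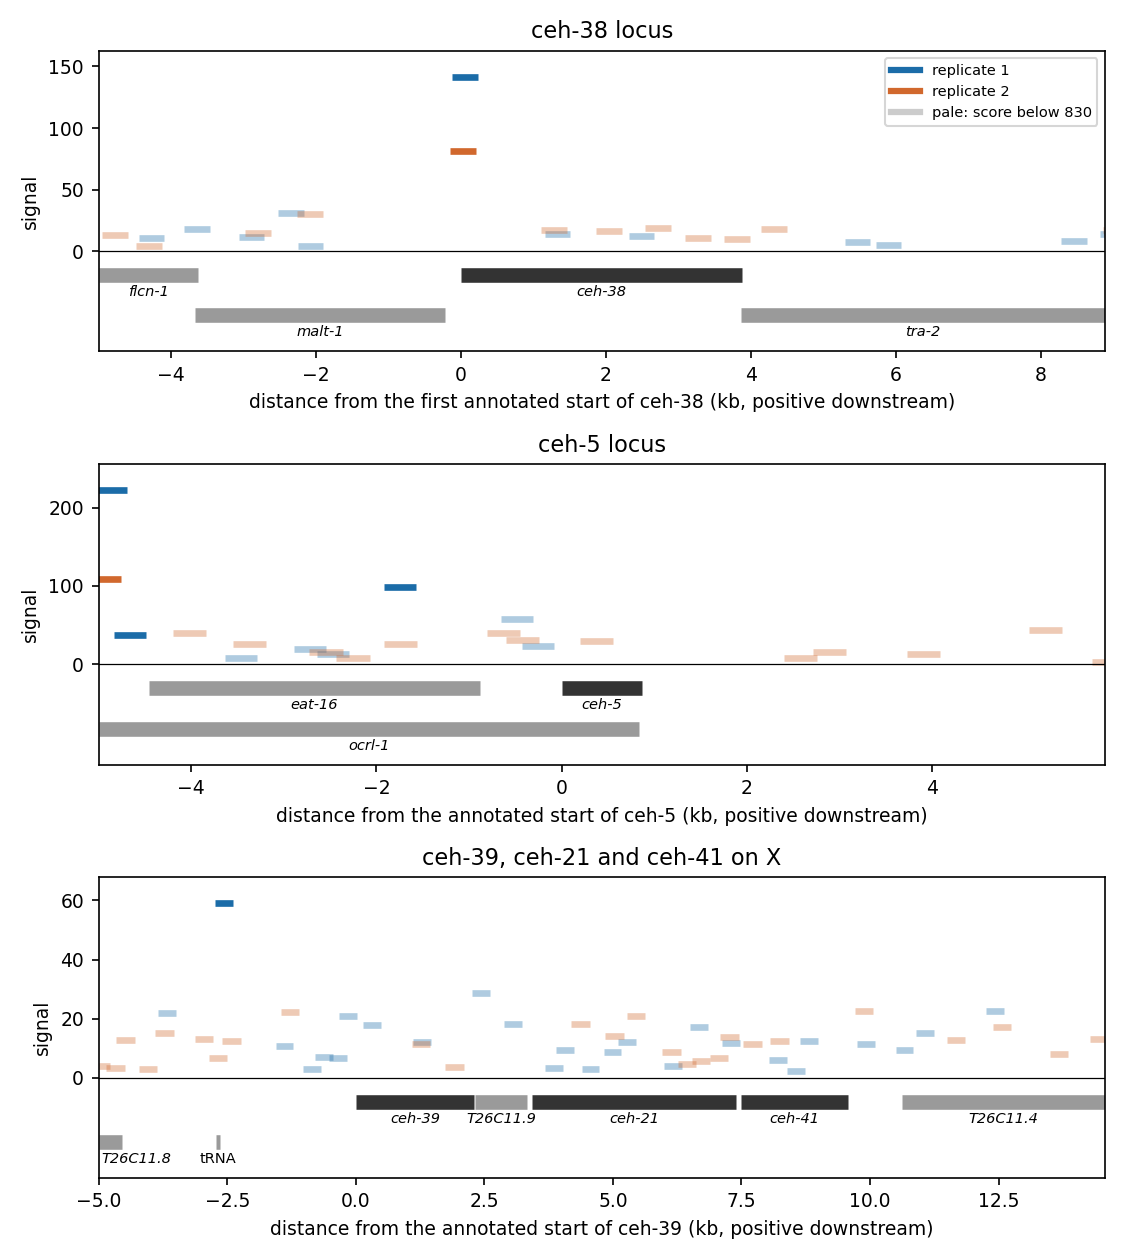
Ranked regions of replicate 1 (blue) and replicate 2 (orange) drawn at their width and signal (vertical axis, caller's units) against distance in kb from the start of ceh-38, ceh-5 and ceh-39, positive downstream, with signals on a different scale in each panel. Pale bars have a score below 830, and grey and black bars below the line are genes, those on the strand of the named gene in the upper row. Both replicates have a solid bar at the start of ceh-38 and upstream of eat-16, and replicate 1 alone has one at the tRNA gene near ceh-39.

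ceh-21, ceh-39 and ceh-41 sit side by side on X, within 9565 bp from 1846608 to 1856172, all on the minus strand. The distance between ceh-41 and ceh-21 is 103 bp and that between ceh-21 and ceh-39 is 1137 bp, which holds the gene T26C11.9. Their windows therefore share regions and do not count as 3 independent loci. Replicate 1 listed 60 entries for the 3 windows from 26 distinct regions, of which 10 lay in all 3 windows. Replicate 2 listed 50 entries from 26 regions, of which 8 lay in all 3.

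ceh-39 (WBGene00000460), the X signal element, had a peak in replicate 1 only. The peak ran from X 1858566 to 1858915, 2569 bp upstream of the ceh-39 start at its summit, with a signal of 59.0, a score of 1000 and rank 766 of 1128. The strongest overlapping region of replicate 2 had a signal of 12.3 and a score of 5, so replicate 1 was the higher by 4.79 times. The peak covers the tRNA gene WBGene00023152 (1858819 to 1858890, plus strand), whose nearer end is 78 bp from the summit. The nearest protein-coding start was that of T26C11.8, 1981 bp away.

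The whole-series region at this place, 1858578 to 1858973, had a signal of 67.8. It ranked 1341 of 122189 but scored 21 in the ranked list that belongs to the conservative list, and 789 in the larger one. In replicate 2 the strongest region in the ceh-39 window was a different one, at 1857277 to 1857636, with a signal of 22.2.

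ceh-21 (WBGene00000444) and ceh-41 (WBGene00000462) shared the same strongest region in each list. In replicate 1 it had a signal of 28.5 with its summit at 1853746, in T26C11.9 next to ceh-39. In replicate 2 it had a signal of 22.5 with its summit at 1846289, between ceh-41 and T26C11.4. The strongest regions of the replicates thus lay at different places. No region in either window scored above 143 in any list.

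ceh-48 (WBGene00015934), a neuronal ONECUT gene on IV from 6812108 to 6815607, had no peak. Its strongest region of the whole series, 6809899 to 6810294, had its summit 2011 bp upstream of the start, with signals of 24.1 in replicate 1 and 27.2 in replicate 2. Replicate 2 was the higher here. Its score was 420 in the ranked list that belongs to the conservative list, 150 in the larger one, 50 in replicate 1 and 158 in replicate 2. In replicate 1 the strongest region of the window was another, with a signal of 29.6, near C17H12.5 downstream of ceh-48.

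ceh-49 (WBGene00017538), on V from 6118333 to 6120206, had the lowest strongest signal of the set in each ranked list. The strongest regions of the replicates, with signals of 22.95 (replicate 1) and 20.8 (replicate 2), lay at different places. Among all protein-coding genes, 66.3% had a stronger region in replicate 1 and 73.9% in replicate 2. No score in its window exceeded 226 in any list. The neighbour 702 bp upstream of ceh-49 is ttn-1, the titin gene.

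Ordered by the strongest region, the genes ran ceh-5, ceh-38, ceh-39, ceh-48, ceh-21 with ceh-41, and ceh-49 in replicate 1. In replicate 2 the order was ceh-5, ceh-38, ceh-48, ceh-21 with ceh-41, ceh-39 and ceh-49. ceh-5 and ceh-38 led in both, at 222 and 142 in replicate 1 and 108 and 81.3 in replicate 2. The ceh-5 values are those of the peak upstream of eat-16. The peak nearest the ceh-5 start had 57.2 in replicate 1 and 40.4 in replicate 2. That was below ceh-38 in both replicates and below ceh-39 in replicate 1. The other genes lay between 20.8 and 27.2 in replicate 2, and apart from ceh-39 between 22.95 and 29.6 in replicate 1. The lowest value in both was that of ceh-49. The replicate ranges of neighbours overlapped for ceh-5 and ceh-38, for ceh-48 and ceh-21, and for ceh-21 and ceh-49. Signals have no stated common scale between replicates, and within each replicate all of these pairs kept the same order. The range of ceh-39, 22.2 to 59.0, spanned those of ceh-48 and ceh-21, and it lay below that of ceh-38. Over all protein-coding genes the median of the strongest region was 26.0 in replicate 1 and 24.7 in replicate 2.

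The number of weak regions did not follow the presence of a peak. In the ranked list that belongs to the conservative list, the ceh-5 window held 7 regions, or 0.644 per kb, and the ceh-49 window 23, or 1.94 per kb. The ceh-38 window held 20 (1.44 per kb), and the median over all protein-coding genes was 1.28 per kb. In replicate 2 the ceh-5 window held 14 regions, or 1.29 per kb.

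**Figure D3:**
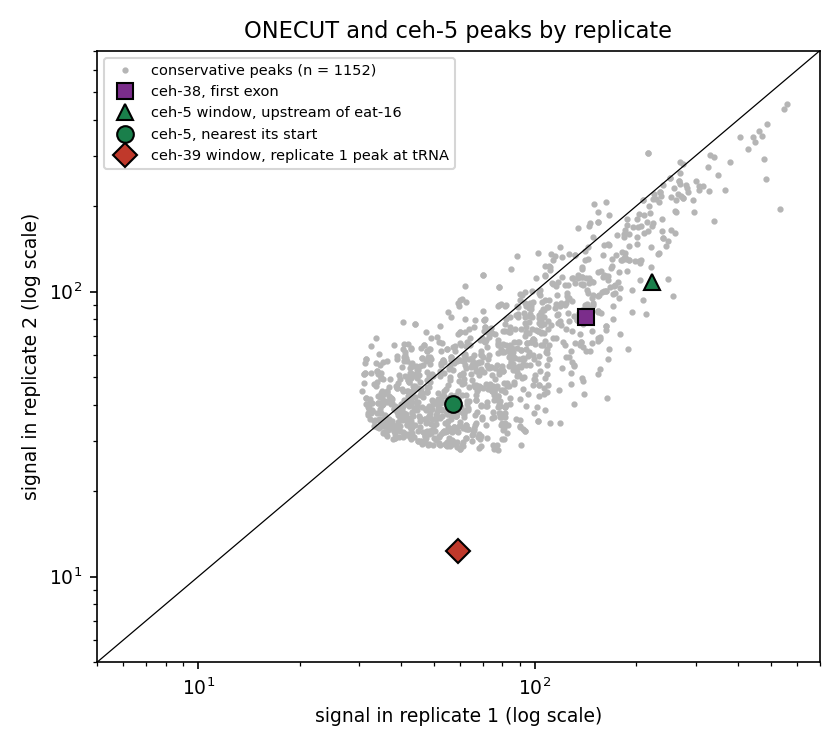
Signal in replicate 1 against signal in replicate 2 (both log scales) at 1152 conservative peaks (grey), with the peaks of ceh-38, ceh-5 and the ceh-39 window marked and a line of equal signal. ceh-38 (142 and 81.3) and the peak upstream of eat-16 (222 and 108) lie below the line, and the ceh-39 tRNA peak (59.0 and 12.3) lies farther below it.

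By signal in both replicates, the ceh-38 peak was most like those of czw-1, cept-2 and din-1. The measure was the distance in log2 signal over 2 replicates, among 696 other promoter peaks. The peak upstream of czw-1, a kinetochore gene, had 140 in replicate 1 and 83.8 in replicate 2, a distance of 0.047. Those of cept-2 and din-1, a nuclear receptor cofactor, had 144 and 85.2, and 135 and 84.0. The ceh-5 peak nearest its start was most like those of pqn-70 (58.5 and 39.7), lsm-7 (58.6 and 39.2), an RNA-binding Sm-like gene, and sms-2 (56.8 and 41.9). Peaks are named here by the nearest protein-coding start. The lsm-7 summit lay 507 bp downstream of that start, past the 200 bp limit, so it counts as a promoter peak through another start. The likeness is of strength alone.

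The motifs searched on both strands, within 150 bp of the summit, were ATCAAT and ATCGAT, core sites of ONECUT proteins, and TAATTA, a homeodomain core. Matches of ATCAAT and TAATTA can share bases. Over all 1171 conservative summits, 24.2% of windows held ATCAAT, 14.9% ATCGAT and 11.0% TAATTA. The ceh-38 window held 1 ATCGAT, shown above, 128.5 bp from the summit, and neither of the others. The ceh-5 peak nearest its start held 1 ATCAAT, 53.5 bp from the summit. The peak before eat-16 held 1 ATCGAT, 136.5 bp from the conservative summit and 94.5 bp from the replicate 2 summit. The window around its replicate 1 summit held no ATCGAT. The peak downstream of ceh-5 at 9732202 to 9732597 held 2 ATCAAT, and the eat-16 3′ UTR region and the peak from 9722311 to 9722706 held no match. Around the strongest whole-series regions of ceh-21 and ceh-48 none of the 3 was present, and around that of ceh-49 there was 1 TAATTA.

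Base composition differed widely between these peaks. G and C made up 43.2% of the ceh-38 window, 30.9% of the window of the ceh-5 peak nearest its start and 53.5% of that of the peak before eat-16. The median over all conservative summits was 39.9%. The replicate 1 peak at the tRNA gene beside ceh-39 also had 53.5%, and held 1 ATCAAT, 138.5 bp from its summit.

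Among homeobox genes as a whole, 9 of 100 matched genes had a conservative peak in their 5 kb window, against 14.6% of all protein-coding genes. In replicate 1 there were 10, against 14% of all genes, and in replicate 2 there were 5, against 9.25%. Each of these counts includes ceh-38 and ceh-5, which were picked for having a peak, so the shares are read no further. A conservative summit in a promoter window was present at 4.73% of all protein-coding genes. Among the homeobox genes those with one were ceh-38 and ceh-5, both picked for having a peak. The others, ceh-18, ceh-89, ceh-93, ceh-19, duxl-1, ceh-8 and ceh-20, had peaks whose nearest protein-coding start was that of another gene. For ceh-20, a PBX homologue that works with Hox proteins, it was F31E3.6 (signal 141). For ceh-8 it was col-63 (111), and for ceh-93 it was ife-2 (100.3). The gene dve-1, a CUT class gene outside the family, had no peak in any list, and ceh-44 was not matched in the annotation.

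Genes linked to the ONECUT family by function were also looked up. Among 6 matched genes that signal or read the X to autosome ratio, xol-1 and sea-2 had a conservative peak, and ceh-39 had none. These 2 of 6 stand beside 14.6% of all protein-coding genes, and none of the 6 had a conservative summit in a promoter window. The larger whole-series list had 3, against 16.1% of all genes. Replicate 1 had 2, ceh-39 included, against 14%, and replicate 2 had 2, against 9.25%. With so few genes nothing is read from the counts. The peaks near xol-1, the switch gene that CEH-39 represses, lay 4876 bp and 4665 bp upstream of its start, with signals of 536 and 166. That of sea-2, an autosomal signal element, lay 3429 bp upstream, with a signal of 86.7. Of 21 pan-neuronal genes, 4 (19.05%) had a conservative peak in the window, near the 14.6% of all protein-coding genes. In replicate 1 there were 6, against 14% of all genes, and in replicate 2 there were 3, against 9.25%. With so few genes nothing is read from these counts either. The 4 in the conservative list were nsf-1 (166) and ric-19 (144) within the promoter, and egl-3 (120 and 98.7) and unc-31 (72.2) farther away. A conservative summit in a promoter window was present at 4.73% of all protein-coding genes.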

How the data were processed

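Peak lists of 2 biological replicates were used as the authors deposited them, on assembly ce11 per the labels. The deposited score is the scaled IDR of a region and the deposited signal is the caller's strength value. Which aligner and peak caller made the lists is not given in the sources used here. Of the 2 ranked lists of the whole series, the one that holds 100% of the conservative peaks with the same region and score was paired with the conservative list. A further 8 columns of values in these lists, which name no sample, were not used. For each replicate, the region with the highest signal in its own ranked list that overlapped a peak by 1 bp or more was taken.

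Genes came from Ensembl release 115, sequences from RefSeq (WBcel235), and Python 3.11.15 with pandas 2.3.3 was used. Ranks are by signal. Overlap counting was tested on simulated data. With 1 group of 2 replicates, and genes chosen by their peaks, no test was run. The genes, lists and motifs were chosen with earlier results of these data known. Named genes are the 7 genes, fixed lists of related genes, neighbours of their peaks, and the 3 promoter peaks closest in signal to those of ceh-38 and ceh-5. Regions named at the threshold and in the tRNA gene were chosen after their values were seen.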

Additional observations from a re-analysis of the deposited data

How the results depend on the processing

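ceh-38 and ceh-5 had a peak under every alternative run, and the count of 2 genes rose to 3 with ceh-39 when replicate 2 was left out. Both were picked for having a peak in these lists, so their presence in each run is read no further. For ceh-5 it was not the same peak throughout. Without replicate 1 only the peak upstream of eat-16 passed, and the window of 2 kb held only the peak nearest the ceh-5 start. The promoter window and the nearest start, applied to the conservative list, also counted ceh-5 through that peak. It did not pass in either replicate alone. The share of peaks stronger than that of ceh-38 was 18.4% and ranged from 16.3% to 40.3% without 1 replicate. The share stronger than the strongest peak in the ceh-5 window was 8.28% and ranged from 5.59% to 22.9% without 1 replicate. It was 51.9% with a window of 2 kb, and 51.9% for the peak nearest the ceh-5 start, an alternative chosen after seeing the data, because both leave out the peak upstream of eat-16. The thresholded lists of the replicates differ in length (1128 and 698 peaks), which by itself moves such shares. The number of homeobox genes with a peak, ceh-38 and ceh-5 included, was 9 in the conservative list, 10 without replicate 2 and 5 without replicate 1. The larger whole-series list, a window of 10 kb, a score of 1000 only and summits in place of regions moved these shares by less than the spread between replicates. Read depth is unknown, so the absence of a peak at ceh-21, ceh-41, ceh-48 and ceh-49 says only that none passed the authors' threshold.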
